A study of Rattus norvegicus with 2 samples.

Results

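The granins and the enzymes that cut and trim prohormones were followed in the rat hypothalamus before puberty and at puberty. The set was chosen by gene symbol and holds 10 named genes. Of these, 8 were listed in the mRNA table, among 22777 genes in all: the granins Scg2, Chgb, Chga, Scg3 and Scg5 and the enzymes Pcsk2, Cpe and Pam. Pcsk1 and Vgf were not listed under these symbols and were not analysed here. The 8 genes have 13 transcripts, and all 8 exceeded 1 FPKM in both libraries.

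The samples were hypothalamic tissue of female Sprague Dawley rats, taken on postnatal day 25 (prepubertal) and on postnatal day 35 (pubertal), with vaginal opening as the sign of puberty and the first estrus, read from vaginal smears, as the pubertal stage. Each stage had 3 rats and no treatment is named for either. The deposited values come as a single column for each stage. The sources used here do not say whether RNA, reads or estimates of the 3 rats were merged, so each stage is called 1 library. With 1 library per stage there is no spread between animals, no difference has a replicate check, and no p-value is given. The hypothalamus is a mixture of cell types, and in such bulk RNA fewer cells of a type and less RNA per cell cannot be told apart.

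Neuropeptides and peptide hormones are made as large precursors that enter dense-core secretory granules, where they are cut, trimmed and stored until the cell is stimulated. Granins are acidic proteins that aggregate with the cargo as granules form and are themselves cut into peptides. Prohormone convertases cut the precursors after pairs of basic residues, carboxypeptidase E removes the basic residues left at the new end, and peptidylglycine alpha-amidating monooxygenase turns a terminal glycine into the amide that many hypothalamic peptides need for activity.

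Promoter sequences of RefSeq (build GRCr8, 250 bases before to 50 after the annotated start) were found for 7 of the 8 genes, all but Chga. The 3 printed here were chosen after the values were seen. Cpe and Pcsk2 had the lowest log2 ratios of the 8 genes, and Scg2 was the granin closest to no difference, both as deposited. Capitals mark the motifs found on either strand, which were TGACGTCA (the cAMP response element, shown for Scg2), its core TGACG and the GC box GGGCGG (shown for Cpe and Pcsk2).
Scg2, chr9:88256817-88257116, minus strand: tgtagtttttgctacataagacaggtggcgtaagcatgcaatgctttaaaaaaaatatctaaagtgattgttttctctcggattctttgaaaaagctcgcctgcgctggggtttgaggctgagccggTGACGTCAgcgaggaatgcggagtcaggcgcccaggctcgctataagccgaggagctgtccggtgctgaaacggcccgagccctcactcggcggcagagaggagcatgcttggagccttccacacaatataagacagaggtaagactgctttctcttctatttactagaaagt
Cpe, chr16:29796457-29796756, plus strand: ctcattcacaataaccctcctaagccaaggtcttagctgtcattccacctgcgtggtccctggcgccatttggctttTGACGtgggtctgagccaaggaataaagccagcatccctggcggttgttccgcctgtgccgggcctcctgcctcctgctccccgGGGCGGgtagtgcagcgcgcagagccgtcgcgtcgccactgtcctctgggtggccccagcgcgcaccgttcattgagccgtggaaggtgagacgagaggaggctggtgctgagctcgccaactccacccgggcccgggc
Pcsk2, chr3:151333688-151333987, plus strand: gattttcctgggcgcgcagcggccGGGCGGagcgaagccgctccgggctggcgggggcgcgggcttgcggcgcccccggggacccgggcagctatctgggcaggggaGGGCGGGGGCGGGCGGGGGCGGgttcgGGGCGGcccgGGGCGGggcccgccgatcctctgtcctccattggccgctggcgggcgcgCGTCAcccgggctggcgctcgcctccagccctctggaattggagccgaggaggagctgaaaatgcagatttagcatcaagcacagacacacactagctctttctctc

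The full TGACGTCA was present in the Scg2 promoter, spanning bases 128 to 135 of the window (base 1 is the most upstream), and in no other of the 7 promoters. It occurs in 1.83% of the 33469 rat promoters of this length. Its core TGACG lies inside it on both strands, and was found in 6 of the 7 promoters, against 21.2% of all promoters. GGGCGG was found in 5 of the 7, against 33.1% of all, and 7 times in the Pcsk2 window, in part as overlapping copies. The Pcsk2 window is 73.3% G and C and that of Cpe 64.7%, with a median of 51.7% over all promoters, and that of Scg2 lies just under this median. These matches describe the letters alone, and the RNA libraries carry no measurement at the promoters.

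The deposited values are FPKM, the number of fragments mapped to a transcript divided by an effective length and by a measure of library size. Levels of different genes can thus be set side by side. The effective length fitted below was shorter than the transcript by 255 nt before puberty and 252 nt at puberty, a larger share of short transcripts. Low FPKM of single-transcript genes lay on whole multiples of the value of 1 fragment. Within 0.1 of a fragment, 96.9% of 1073 low values before puberty and 96.9% of 1200 at puberty were whole. The spacing corresponded to an effective depth of 2.07e+07 fragments in the prepubertal library and 1.62e+07 fragments in the pubertal library. The fragments behind each gene were taken from it, and intervals given below are exact 95% counting intervals. They cover counting error only, since the fragments carry no molecular identifiers and the spread between rats is not in them.

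All 8 genes were abundant in both libraries. Their levels ran from 88.0 FPKM (Chga) to 854 FPKM (Cpe) before puberty and from 93.7 FPKM (Chga) to 610 FPKM (Cpe) at puberty. Together they made up 0.313% of the summed mRNA FPKM before puberty and 0.271% at puberty. Among the 14029 genes with at least 1 FPKM in 1 library, Chga lay above 90.5% of genes before puberty and above 90.8% at puberty, and Cpe above 99.2% and 98.7%.

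From high to low, the order before puberty was Cpe, Scg5, Scg2, Chgb, Pcsk2, Pam, Scg3 and Chga. The first 4 places and the last were the same at puberty. Pcsk2 moved from the fifth to the seventh place, behind Pam and Scg3. Before puberty the counting intervals of Pcsk2 (126 to 132 FPKM) and Pam (125 to 130 FPKM) overlapped, and at puberty those of Scg3 (105 to 113 FPKM) and Pcsk2 (102 to 108 FPKM) did so. The other neighbours in either order had separate intervals.

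**Figure D1:**
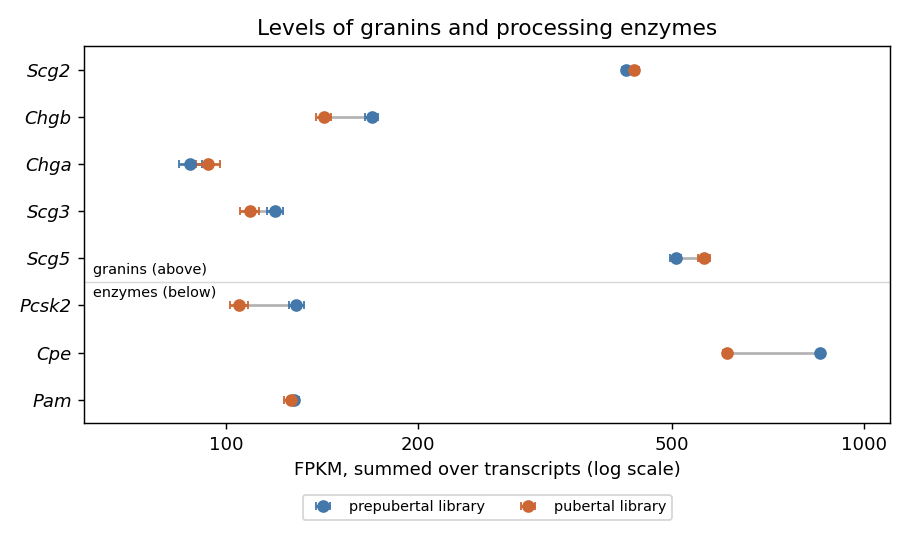
FPKM of the 8 genes (x axis, log scale) in the prepubertal (blue) and the pubertal (orange) library, with granins in the upper and enzymes in the lower rows and bars for exact 95% counting intervals. Cpe has the widest gap, from 854 to 610 FPKM, while the points of Pam, at 127.7 and 126.4 FPKM, nearly coincide.

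Differences between the libraries were small for most of the set. They are given as log2 of (FPKM + 1) at puberty over (FPKM + 1) before puberty. At least 1.5-fold was reached by 0 of the 8 genes in either direction, where 4.65% of the 14029 genes reached it in 1 direction or the other. As deposited, 5 of the 8 were lower and 3 higher at puberty, where 51.1% of all genes were lower. With the libraries scaled to equal Actb, 1 of the 8 and 10.2% of all genes were lower. At a smaller size, a log2 ratio of at least 0.32 up or down, 1 of the 8 (Cpe) was lower and 0 higher, against 11.3% and 8.07% of all genes. With equal Actb, 0 of the 8 were lower and 4 higher by this size (Scg2, Chga, Scg5 and Pam), against 2.11% and 55.9% of all genes. Over the 8 genes the log2 ratio had a median of -0.07, and over all genes of -0.0065. Among the 2604 genes with at least 50 FPKM in 1 library, as all 8 had, 37.7% were lower at puberty. In the same 2604 genes, 5.80% were lower and 7.95% higher by at least 0.32 on the log2 scale, 2.96% differed by at least 1.5-fold, and the median was 0.06.

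Scg2, Chgb and Chga are the classical granins, soluble acidic proteins of the granule core. Scg2 (ENSRNOG00000015055), the precursor of secretoneurin, had 424 FPKM before puberty and 437 FPKM at puberty, a log2 ratio of 0.04 (interval 0.01 to 0.07) that became -0.02 after scaling both libraries to the same sum and 0.45 with equal Actb. Chga (ENSRNOG00000007912), the precursor of vasostatin and pancreastatin, had 88.0 and 93.7 FPKM, a log2 ratio of 0.09 (interval 0.00 to 0.18), or 0.49 with equal Actb. Chgb (ENSRNOG00000021269) went the other way, from 169 to 142 FPKM, a log2 ratio of -0.25 (interval -0.30 to -0.20). This log2 ratio became 0.15 with equal Actb, the 1 of 9 alternative settings that turned its sign. Chga was the least abundant of the granins, and the Scg2 to Chga ratio was 4.82 before puberty and 4.66 at puberty. Relative to Chgb, Scg2 went from 2.51 to 3.07 and Chga from 0.520 to 0.659. Ratios within a library do not depend on how the libraries are scaled.

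Scg3 and Scg5 differ in role from the granule core proteins. Scg3 (ENSRNOG00000010784) binds cholesterol-rich granule membrane and holds chromogranin A there, and had 119 FPKM before puberty and 109 FPKM at puberty. Its log2 ratio was -0.13 (interval -0.19 to -0.06), or 0.27 with equal Actb, the 1 of 9 alternative settings that turned its sign. Scg5 (ENSRNOG00000007542) encodes the chaperone that keeps the precursor of Pcsk2 inactive until it reaches the granule. It was the most abundant granin in both libraries, with 507 and 562 FPKM. Its log2 ratio of 0.15 (interval 0.11 to 0.19), or 0.55 with equal Actb, was the highest of the 8 genes, and 23.9% of all genes had a log2 ratio at least as high. Scg5 and Chga were higher at puberty under all 7 alternative settings that could change their values, Scg5 by at least 0.09 and Chga by at least 0.03 on the log2 scale.

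Cpe (ENSRNOG00000043387) showed the largest difference of the set as deposited, while with equal Actb it had the smallest and Scg5 the largest. This carboxypeptidase had 854 FPKM before puberty and 610 FPKM at puberty, resting on about 30785 and 17222 fragments. The pubertal level differed from the prepubertal one by -28.6%, a log2 ratio of -0.49 (interval -0.51 to -0.46), and with equal Actb it was -0.08. Cpe was lower at puberty under the same 7 alternatives, and 4.38% of the 14029 genes, or 2.57% of the 2604 genes at 50 FPKM or more, had a log2 ratio as low. By FPKM it was the gene of rank 117 before puberty and rank 183 at puberty.

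Pcsk2 (ENSRNOG00000005438), the convertase that makes the smaller peptides of many precursors, had 129 FPKM before puberty and 105 FPKM at puberty. Its log2 ratio was -0.29 (interval -0.35 to -0.24), or 0.11 with equal Actb, the 1 of 9 alternative settings that turned its sign. A log2 ratio this low was found in 13.3% of all genes and in 6.99% of those at 50 FPKM or more. Pam (ENSRNOG00000033280), the amidating enzyme, had 127.7 and 126.4 FPKM summed over its transcripts, a log2 ratio of -0.01 (interval -0.06 to 0.03), or 0.39 with equal Actb. Its sign was positive under 5 of the 9 alternatives.

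**Figure D2:**
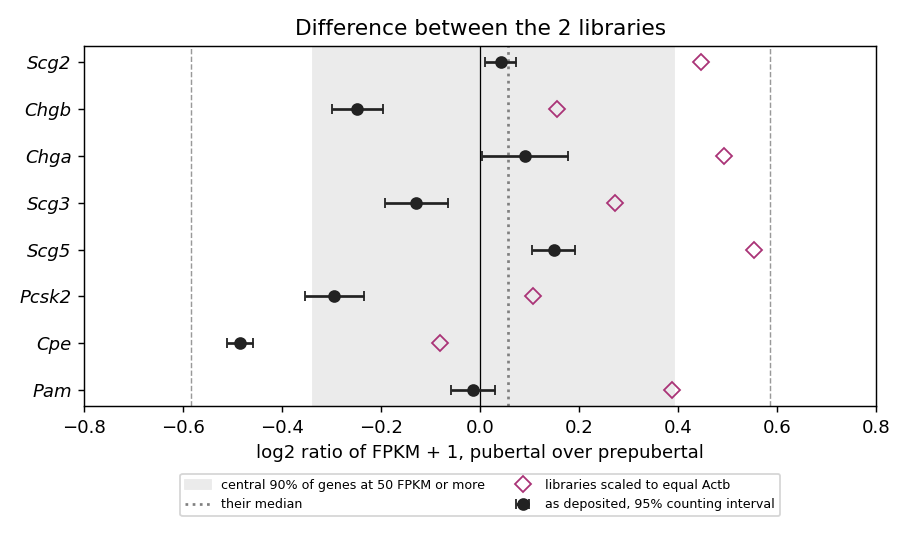
Log2 ratio of FPKM + 1, pubertal over prepubertal, for the 8 genes (black, as deposited, with 95% counting intervals) and with the libraries scaled to equal Actb (open diamonds). Grey marks the central 90% of the 2604 genes with at least 50 FPKM in 1 library, dotted their median and dashed lines a 1.5-fold difference. As deposited, Cpe at -0.49 lies outside the grey band and the other 7 inside, and with equal Actb 7 of the 8 lie above 0.

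Pam is the 1 gene of the set with several listed transcripts. Of its 6 transcripts, 4 were above 0 and 2 were listed at 0 in both libraries. The 3774 nt transcript ENSRNOT00000043451 held 79.9% of the FPKM before puberty and 81.9% at puberty, with 102 and 103 FPKM. ENSRNOT00000056457 followed with 15.8 and 14.5 FPKM. The minor transcripts moved apart: ENSRNOT00000049205 had 5.03 and 2.64 FPKM (log2 ratio -0.73) and ENSRNOT00000049286 had 4.87 and 5.85 FPKM (0.22). These last are 3198 and 3252 nt long and are isoforms of the same gene as the main form, so their FPKM are estimates of how shared fragments divide, and no counting interval applies to them. Summed, the 3 minor transcripts went from 25.7 to 22.9 FPKM.

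**Figure D3:**
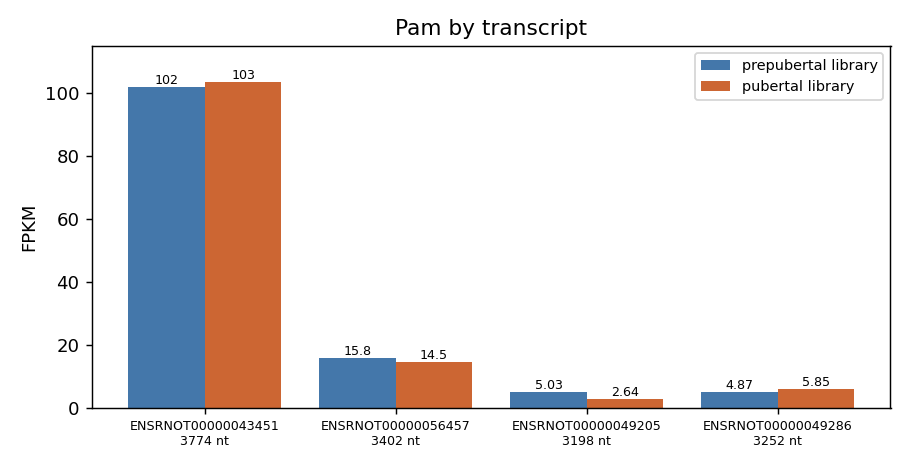
FPKM (bars from 0) of the 4 Pam transcripts listed above 0, in the prepubertal (blue) and the pubertal (orange) library, with transcript length under each name. One transcript carries most of the gene in both libraries (102 and 103 FPKM), and ENSRNOT00000049205 has 5.03 FPKM before puberty and 2.64 FPKM at puberty.

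The sums of granins and enzymes stood in different ratios in the libraries, and most of this came from Cpe. The 5 granins summed to 1308 FPKM before puberty and 1343 FPKM at puberty. The 3 enzymes summed to 1111 and 841 FPKM, of which Cpe held 76.9% and 72.5%. The ratio of the sums went from 1.18 to 1.60, by 1.36-fold. Without Cpe, the enzymes summed to 257 and 231 FPKM and the ratio went from 5.09 to 5.81, by 1.14-fold. Scg5 stood at 3.93 times Pcsk2, the convertase it serves as chaperone, before puberty and at 5.35 times at puberty. Against Cpe, Scg5 went from a ratio of 0.594 to 0.922. Pam, level with Pcsk2 before puberty (ratio 0.990), was at 1.20 times Pcsk2 at puberty. These ratios hold for the FPKM of the 2 libraries and have no error between animals.

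Other genes of the pathway were taken from lists written with this set, and their directions are those of the deposited values without added scaling. The 35 genes of the lists without peptide precursors that reached 1 FPKM had a median log2 ratio of 0.03, or 0.006 relative to genes of like length. Of these, 14 were lower and 21 higher at puberty, where 51.1% of all genes were lower. Against 4.65% of all genes, 1 of the 35 differed by at least 1.5-fold. This was the carboxypeptidase gene Cpz, named after its values were seen, at 1.66 and 0.75 FPKM (log2 ratio -0.60), which met the minimum of 1 FPKM through the prepubertal library alone. Among the other proprotein convertases, 2 of 5 were lower and 3 higher. Mbtps1, which cuts membrane-bound transcription factors in the Golgi, went from 31.4 to 34.1 FPKM (log2 ratio 0.11), and Pcsk6 from 7.95 to 9.12 FPKM (0.18). Furin, the convertase of the constitutive pathway, was named after its values were seen and went from 6.01 to 3.92 FPKM (-0.51). Pcsk1n, whose product proSAAS inhibits Pcsk1, had 114 and 118 FPKM, a log2 ratio of 0.05.

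Of the other carboxypeptidases, 3 of 6 were lower and 3 higher, and of the 4 with at least 1 FPKM in both libraries 1 was lower and 3 higher. Cpd, which does in the trans-Golgi network what Cpe does in granules, went from 39.5 to 43.6 FPKM (log2 ratio 0.14), and Cpm at the cell surface from 7.03 to 6.50 FPKM (-0.10). The Cpe to Cpd ratio was 21.6 before puberty and 14.0 at puberty. Ctsl, the protease cathepsin L, had 195 and 186 FPKM (-0.06), and Rnpep, an aminopeptidase for basic residues, had 28.7 and 28.3 FPKM (-0.02).

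Genes of dense-core vesicle membrane and release were lower in 4 and higher in 7 of 11, with a median log2 ratio of 0.04. Relative to genes of like length, 6 were lower and 5 higher, with a median of -0.01. Syt4, a synaptotagmin of these vesicles, went from 110 to 131 FPKM (0.24), and Cadps, which primes them for fusion, from 91.4 to 95.8 FPKM (0.07). Syt7 and the vesicle protein Ptprn2, named after their values were seen, went from 41.7 to 29.5 FPKM (-0.48) and from 103 to 81.3 FPKM (-0.34). Sytl4, a partner of Rab27 named in the same way, had 6.27 and 9.84 FPKM (0.58, interval 0.31 to 0.84), the largest difference of this list. Genes of vesicle formation were lower in 2 and higher in 6 of 8, and relative to genes of like length lower in 4 and higher in 4. Rab2a, a small GTPase of early granule formation, had 222 and 227 FPKM (0.03), and Ccdc132, a subunit of an endosomal tethering complex, 40.6 and 48.2 FPKM (0.24).

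Of the 35 listed peptide precursors that reached 1 FPKM, 27 were higher and 8 lower at puberty as deposited. In the same libraries telencephalic markers were lower in 6 of 6, thalamic in 5 of 6 and pituitary in 1 of 3, each over markers with at least 1 FPKM in both. Of the 28 precursors that reached 1 FPKM in both libraries, 25 were higher and 3 lower. Over all genes 51.1% were lower, and 42.1% in the class of the shortest mRNAs, up to 744 nt. In the next classes, up to 1126 nt and up to 1407 nt, 36.5% and 40.4% were lower. The median log2 ratio of the 35 was 0.20. The 40 listed precursors summed to 3589 FPKM before puberty and 5096 FPKM at puberty, by 1.42-fold, and without Pmch and Oxt to 1503 and 1688 FPKM, by 1.12-fold. The precursors with the highest mean were Pmch, of melanin-concentrating hormone, with 1675 and 2723 FPKM (0.70), and Oxt, of oxytocin, with 411 and 686 FPKM (0.74). Both passed 1.5-fold, as did Kiss1, the kisspeptin precursor, named after its values were seen, with 1.46 and 3.78 FPKM (0.96). The 3 lower ones among the 28 were Cck, Avp and Gnrh1, named in the same way. Cck had 257 and 242 FPKM (-0.08), Avp 254 and 240 FPKM (-0.08) and Gnrh1 8.46 and 6.28 FPKM (-0.38). The mRNAs of precursors are short, with a median of 723 nt, and centred on genes of like length their median log2 ratio was 0.14. Precursors and processing genes were compared as levels only, and the peptides were not measured.

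**Figure D4:**
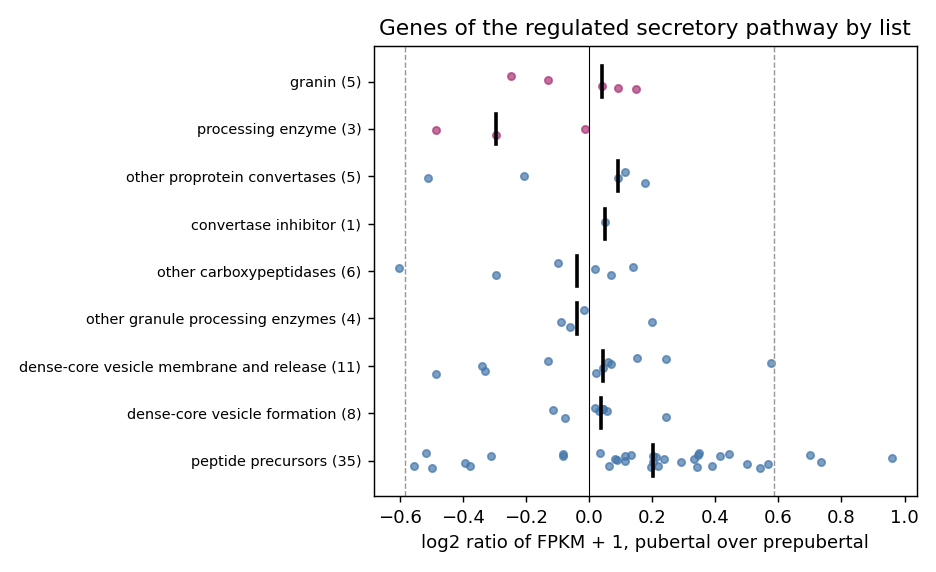
Log2 ratio of FPKM + 1, pubertal over prepubertal, as deposited, for each gene with at least 1 FPKM in 1 library (points, with the number of genes after each list name) and the list median (black bar). Dashed lines mark 1.5-fold. The processing enzymes have the lowest median, -0.29 over 3 genes, and the 35 peptide precursors the highest, 0.20. Centred on genes of like length, the median of the precursors is 0.14 and that of the other proprotein convertases 0.16.

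Transcript length moved with the difference between the libraries. In 10 classes of equal size by length, the median log2 ratio ran from 0.07 in the class up to 744 nt to -0.13 in the class from 4438 nt. Relative to genes of like length, the log2 ratio was -0.49 for Cpe, -0.27 for Pcsk2, -0.26 for Chgb and -0.14 for Scg3, close to the values as deposited. It was 0.03 for Scg2, 0.05 for Chga, 0.09 for Scg5 and 0.06 for Pam. By this measure 4 of the 8 genes were lower and 4 higher.

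**Figure D5:**
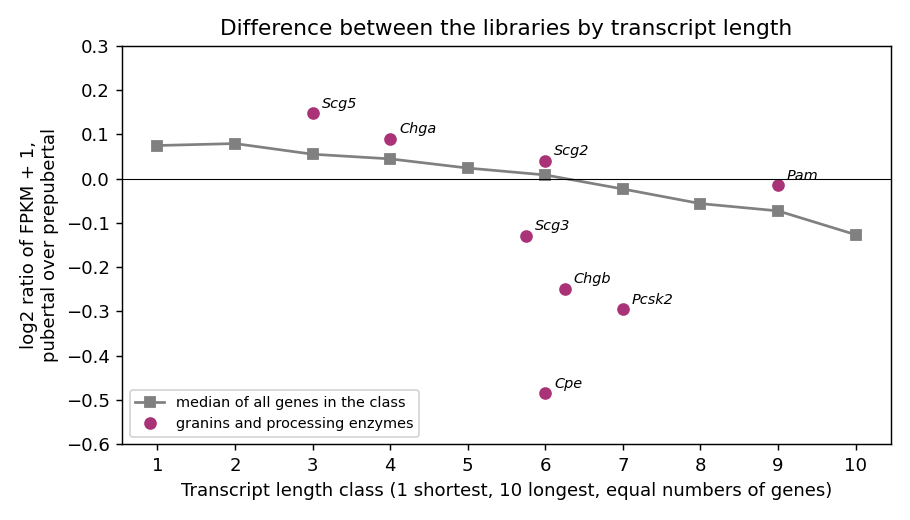
Log2 ratio of FPKM + 1, pubertal over prepubertal, as deposited (y axis), against 10 classes of transcript length from short to long, with the median of all genes in a class (grey squares) and the 8 genes (purple, Scg3 and Chgb shifted sideways within class 6). The class medians go from 0.07 to -0.13, and Cpe, Pcsk2, Chgb and Scg3 lie below the line.

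Markers of cell types and regions differed between the libraries as well, again as deposited. Of 10 pan-neuronal markers 8 were lower at puberty, with a median log2 ratio of -0.07 and a summed level of 2674 and 2513 FPKM. With equal neuronal markers the median of the 8 genes was -0.00029, while single genes ran from -0.41 (Cpe) to 0.22 (Scg5). Telencephalic markers were lower in 6 of 6 that reached 1 FPKM, with a median log2 ratio of -0.72. Thalamic markers were lower in 5 of 6 and summed to 183 and 145 FPKM. Of the 10 anterior pituitary markers, a tissue rich in granins, 5 stayed below 1 FPKM and 3 were at 0 in 1 library. Of the 3 that reached it in both libraries 1 was lower and 2 higher, 0 past 1.5-fold. Gh1 with 0.87 and 4.09 FPKM and Prl with 0 and 3.40 FPKM, named after their values were seen, reached it through the pubertal library alone, and the list summed to 32.5 and 45.3 FPKM. Markers of red blood cells were higher in 4 of 4 (6406 and 12539 FPKM), those of microglia higher in 7 of 7 (241 and 286 FPKM) and those of fibroblasts and meninges lower in 5 of 5 (57.9 and 35.6 FPKM). Other lists were mixed, with 2 of 6 astrocyte markers lower (median log2 ratio 0.07), 4 of 7 for oligodendrocytes (-0.15), 4 of 5 for endothelium (-0.15) and 2 of 4 for choroid plexus (-0.06). Markers of the hypothalamus summed to 12.9 and 13.9 FPKM, with 6 of 11 below 1 FPKM, and of the 4 that reached it in both libraries 1 was lower. The part of these markers in the values of the granins, the enzymes and the peptide precursors was not tested.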

How the data were processed

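Hypothalamic RNA depleted of ribosomal RNA was sequenced from 2 stages as strand-specific paired ends. The authors used TopHat for alignment, Scripture and Cufflinks 2.1.1 for assembly, and Cuffdiff 2.1.1 for the deposited FPKM of each transcript. The submitters' processing notes name the genome build Rnor_5.0, while the methods link an Rnor_6.0 annotation. The comparison table also holds the authors' log2 ratios, p-values and q-values, which were not used. It supplied gene symbols and lengths. FPKM of 13 transcripts, 0 of them of this set, differed between the tables.

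FPKM were summed per gene and log2((pubertal + 1) / (prepubertal + 1)) was computed, with no added scaling. The set, the lists and the fold sizes were chosen with earlier results of these data known. Named list genes are the 2 with the highest mean FPKM and any past 1.5-fold with at least 5 FPKM in 1 library (at most 4), and genes named after their values were seen are marked. Fragments were derived from transcripts of at least 1000 nt, with FPKM times (length minus a fitted offset) divided by the value of 1 fragment. For Pam they are sums of estimates. Counting intervals of log2 ratios are conditional exact binomial (Clopper-Pearson) and those of FPKM exact Poisson. Shares of genes in log2 ratio were taken over genes with at least 1 FPKM in 1 library. The fragment step was tested on simulated data. Alternatives covered the pseudocount, 5 scalings, the transcript used, the table and transcript length. Protein features were not analysed here, nor were the lncRNA tables. Scripts ran in Python 3.11.15. Tables were handled with pandas 2.3.3 on numpy 2.4.6, intervals came from scipy 1.17.1 and plots from matplotlib 3.10.9.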

Additional observations from a re-analysis of the deposited data

How the results depend on the processing

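The 9 alternatives left 0 of the 8 genes past 1.5-fold, and of the 57 log2 ratios of single genes that they could change, 27 moved by no more than their counting error and 30 by more. Another 15 were fixed, since 7 genes have 1 transcript and the tables do not differ for this set. The median over the 8 genes, on the log2 scale, was -0.0071 with equal medians, -0.00029 with equal neuronal markers, -0.13 with FPKM scaled to the same sum and 0.33 with equal Actb, where 1 gene was lower. Equal Actb multiplied the pubertal library by 1.32, a shift of 0.41 in log2 FPKM, which is smaller for genes of low FPKM on the scale of FPKM + 1, and Actb itself had 763 and 576 FPKM. The median of the peptide precursors was 0.27, 0.28, 0.15 and 0.59 in the same order, and 0.14 when centred on transcript length. At a log2 ratio of 0.32 in size, 1 of the 8 genes passed (lower), with FPKM scaled to the same sum 2 (both lower, as 15.8% of all genes) and with equal Actb 4 (all higher, as 55.9% of all genes). Among all genes, 2.97% passed 1.5-fold with a minimum of 10 FPKM and 2.96% with a minimum of 50 FPKM, a setting chosen after seeing the data, and the median log2 ratios were 0.011 and 0.057. Centring the lists on length, counting them over genes at 1 FPKM in both libraries and leaving Cpe, or Pmch and Oxt, out of the sums were also chosen after seeing the data. No paired analysis was possible because each stage has 1 library, and for the same reason no replicate could be left out. Depth did not limit these abundant genes, whose counting intervals reached a median of 0.05 to either side on the log2 scale, but the spread between rats is unknown.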
